A study of Mus musculus with 2 samples.

Results

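The proteasome genes of mouse liver were described in 2 RNA-seq libraries, 1 from CD-1 mice given titanium dioxide nanoparticles (NP) by mouth and 1 from CD-1 mice given phosphate-buffered saline (Control). The mice, an outbred laboratory stock, received NP at 50 mg per kg daily, from a suspension stirred with ultrasound for 30 min. Per the labels, both samples were liver frozen after removal, and the number, sex and age of the mice behind a library and the length of dosing are not stated there. Genes were taken by name, as every gene symbol made of Psm, a letter from a to g and a number. This gave 48 symbols under 50 gene identifiers, out of 37146 identifiers in the tables. Values are FPKM, fragments scaled to transcript length and to all mapped fragments, summed over the rows of a gene identifier. Brackets give the 95% interval that Cufflinks reports for a library. That interval covers the estimate within 1 library, so animal-to-animal spread is not part of it. Each group was a single library, so there was no replicate and no test, and every difference below describes these 2 libraries and not the treatment.

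The proteasome is the protease that degrades proteins tagged with ubiquitin. Its barrel-shaped core holds rings of alpha subunits, which gate the entrance, around rings of beta subunits, some of which carry the active sites. A regulatory cap of ATPase and non-ATPase subunits binds ubiquitin chains, unfolds the substrate and feeds it into the core. Interferon and other inflammatory signals replace the active beta subunits with inducible ones, which forms the immunoproteasome and favours peptides for class I antigen presentation. Other activators, an inhibitor and a set of assembly chaperones complete the family. In hepatocytes the proteasome also degrades misfolded proteins returned from the endoplasmic reticulum.

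Coverage per unit of FPKM over the proteasome genes was 2.29 in Control and 2.92 in NP, with NP covered 1.28 times as deeply. The distance from a value to its upper limit had a median of 9.16% for Control and 8.99% for NP, and it reached 44.2% and 36.5% for the gene with the least certain value. Hepatocyte genes were high in both libraries, with albumin (Alb) at 21660 FPKM in Control and 30741 in NP.

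Most proteasome genes had close values in the libraries. Averaged over the libraries, 44 of the 50 identifiers reached 1 FPKM. On the scale of log2((NP + 1)/(Control + 1)), which understates differences of low genes, 1 of these 44 passed 1.5-fold upward in NP and 1 passed it downward. Over all 10533 genes past the same filter, 3.6% passed it upward and 5.33% downward, so the proteasome counts lay near the background. At 2-fold, 0 proteasome genes were higher and 0 lower, against 1.14% and 1.88% of all genes. The higher gene was Psmb9, an inducible active-site subunit, and the lower gene was Psma5, an alpha subunit. Within 1.2-fold lay 39 of the 44 genes, or 88.6%, against 68.2% of all genes. Beyond it, 3 were higher (Psmb7, Psmb9 and Psmg3) and 2 lower (Psma5 and Psmb5), against 13.7% and 18.1% of all genes. The proteasome genes were also more abundant than most, with a median of 45.2 FPKM in Control against 8.24 over all genes, and the part of abundance in this share was not tested. The median log2 ratio was 0.02 over the proteasome genes and -0.03 over all genes, and 25 proteasome ratios lay above 0 and 19 below. Summed over all members, FPKM was 2186 (2151–2221) in Control and 2232 (2197–2267) in NP, and these intervals overlapped. Intervals were apart with NP the higher for 2 of the 44, Psmb9 and Psmb7, against 7.73% of all genes, and with NP the lower for 3, Psma5, Psmc2 and Psme4, against 9.58%.

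**Figure D1:**
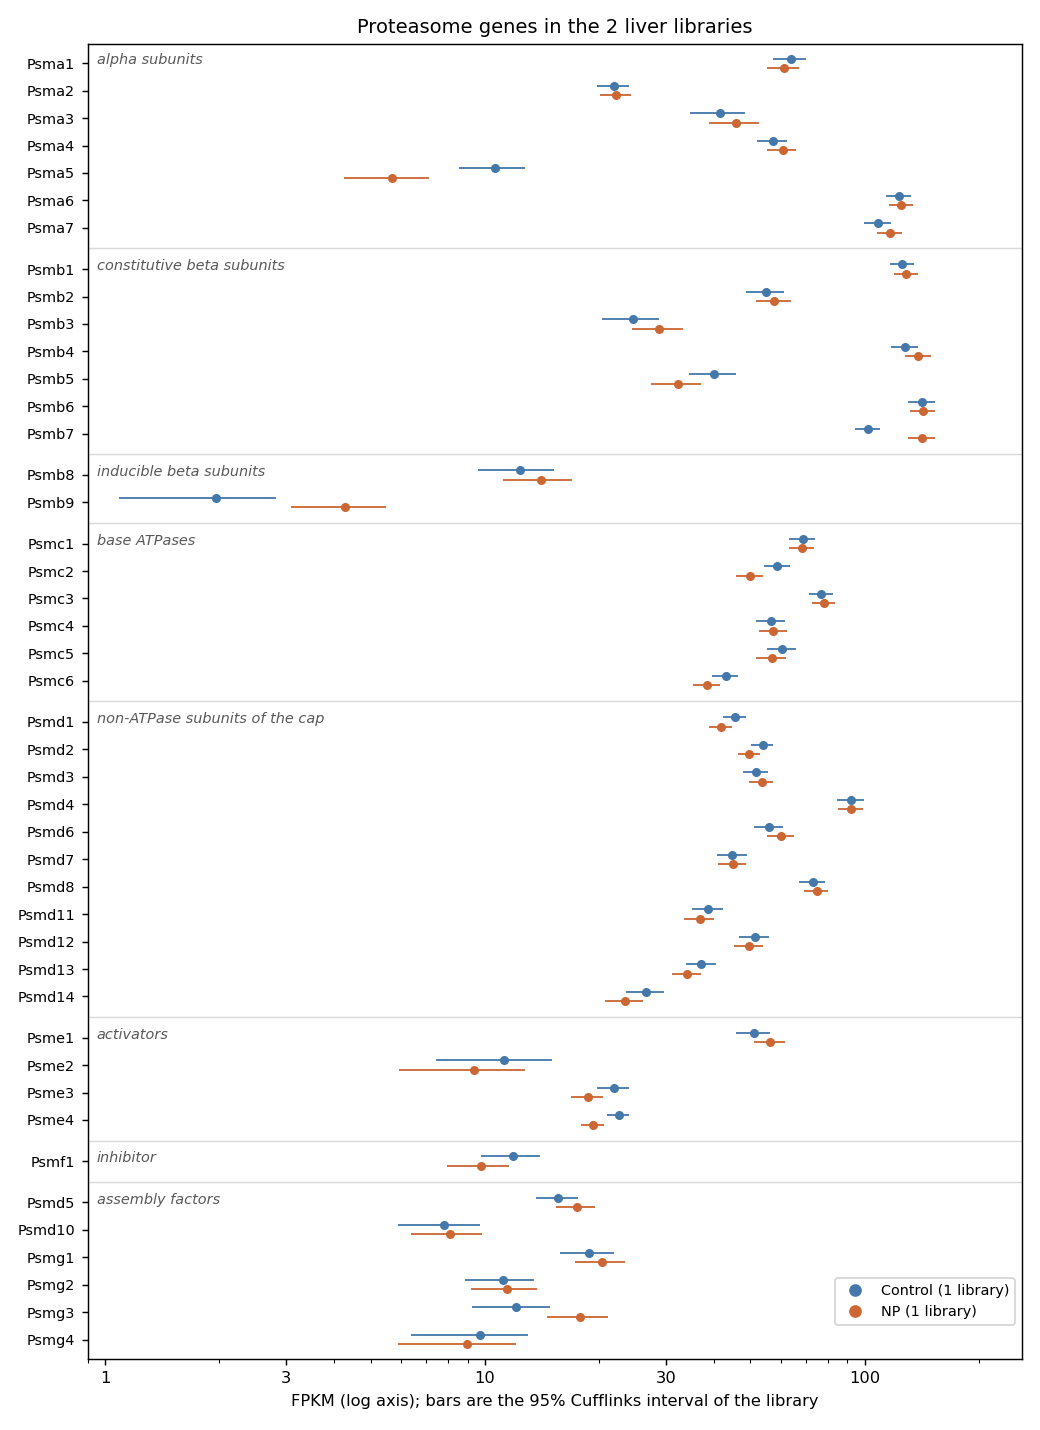
FPKM of the 44 proteasome genes past the filter, on a log axis, in the Control library (blue) and the NP library (orange), grouped by role. Points are library values and horizontal bars the 95% Cufflinks interval; the intervals are apart for Psmb9, Psmb7, Psma5, Psmc2 and Psme4 and overlap for the other genes.

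The 6 identifiers under the filter were of 3 kinds. Psma8, an alpha subunit of male germ cells, was at 0.613 FPKM in Control and 0.547 in NP. Psmb11, the beta subunit of the thymus, was at 0.00282 FPKM in Control, and its NP value was listed as 0. Psmb10, the inducible partner of Psmb7, and Psmd9, a chaperone of cap assembly, were listed at 0 in both libraries. The upper limit of the Psmb10 transcript row was 0.187 FPKM in Control and 0.167 in NP. A listed 0 in these tables can be a failed estimate, so no statement on the level of Psmb10 or Psmd9 is drawn from it. The remaining 2 identifiers were second entries for Psmb9 and Psmd14, also listed at 0 in both.

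Alpha subunits of the core had overlapping intervals in 6 of 7 measured genes. Psma6 and Psma7 were the most abundant, at 123 FPKM (114–132) and 108 (99.3–117) in Control, and at 125 (116–134) and 116 (107–125) in NP. Psma1 was at 63.8 and 61.3 FPKM, Psma4 at 57.2 and 60.7, Psma3 at 41.5 and 45.8, and Psma2 at 21.8 and 22.1 in Control and NP. The class median log2 ratio was 0.02, and the summed FPKM of the class was 427 (410–444) in Control and 438 (421–454) in NP. Psma5 stood apart, at 10.7 FPKM (8.56–12.8) in Control and 5.69 (4.24–7.13) in NP, 1.87-fold lower. It lies on chromosome 3 from 108059844 to 108082892 in the mm9 build of the files. Its FPKM level was the lowest of the 7 in both libraries.

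The low level of Psma5 went with reads listed under near-identical genes elsewhere in the genome. A processed pseudogene is a reverse-transcribed copy of a messenger RNA, and short reads can often be assigned to the parent or to the copy alike. In the GENCODE transcripts of build GRCm38, 2 such copies of Psma5 were also in the files. Gm8394 matched it at 98.6% identity over 952 bases, and Gm12989 at 97.6% over 734 bases. The opening 120 coding bases of Psma5 (chromosome 3) and the matching stretch of Gm8394 (chromosome 10) show how little separates them, with the 2 bases that differ in capitals.
Psma5: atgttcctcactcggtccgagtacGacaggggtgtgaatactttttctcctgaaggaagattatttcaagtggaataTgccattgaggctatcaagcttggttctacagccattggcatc
Gm8394: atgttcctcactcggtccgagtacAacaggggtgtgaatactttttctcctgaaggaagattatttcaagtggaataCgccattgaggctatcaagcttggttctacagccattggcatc
Coding bases 241 to 360 of Psma5 and of Gm12989 (chromosome 4) differ at 3 positions, again in capitals.
Psma5: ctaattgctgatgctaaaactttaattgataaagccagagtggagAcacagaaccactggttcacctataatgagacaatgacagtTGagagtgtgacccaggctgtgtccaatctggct
Gm12989: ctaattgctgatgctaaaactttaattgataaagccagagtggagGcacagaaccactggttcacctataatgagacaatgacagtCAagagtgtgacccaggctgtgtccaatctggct
Gm8394 was listed at 37.9 FPKM in Control and 40.3 in NP, and Gm12989 at 21.0 and 20.2. Both copies thus had higher listed levels than Psma5 itself, and neither was lower in NP to the extent that Psma5 was. Psma5 and its copies together were at 69.6 FPKM (63.3–75.8) in Control and 66.2 (60.3–72.1) in NP, giving 0.951 as their ratio, with overlapping intervals. Psma5 held 15.3% of that sum in Control and 8.59% in NP. The row spanning the whole Psma5 gene, which may include intron reads, was at 0.457 FPKM (0.361–0.552) in Control and 0.286 (0.216–0.357) in NP. Its ratio was 0.627, with separate intervals. The split of reads between parent and copies is the authors' estimate. The part of this split in the lower Psma5 value was not tested beyond the sum of parent and copies.

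The same search found 30 copies of 15 proteasome genes, at no less than 90% identity over at least 300 bases and 0.5 of the shorter transcript. The files held 18 of these, and 10 copies of 9 genes were at 1 FPKM or more in a library. Psme2 was the clearest other case, described with the activators below. For Psma3, the copy Gm13835 (100% identity over 685 bases) was listed at 122 FPKM in Control and 121 in NP, so that Psma3 held 25.4% and 27.4% of the sum. For Psmb3, the copy Gm4950 was at 24.3 and 26.4 FPKM, close to the level of Psmb3. The single expressed copy of Psma4, Gm6542, was at 38.6 FPKM in Control with a listed 0 for NP. With this copy added, Psma4 went from 95.8 FPKM (88.2–103) in Control to 60.7 (55.4–66.1) in NP, with a ratio of 0.634, while the value of Psma4 alone had a ratio of 1.06. Adding all copies therefore left 1 gene at least 1.5-fold lower, Psma4 in place of Psma5. The Psma4 call rests on the listed 0 of Gm6542 in NP. That 0 can be a failed estimate, so no statement on Psma4 is drawn from it. Copies of Psmd2 and Psmd11, both cap subunits, were lower in NP (Gm5422 at 10.7 and 6.09 FPKM, Gm14048 at 18.1 and 12.2). The level of copies absent from the files is not known. No copy was listed at 1 FPKM or more for 35 genes past the filter. Of these 35, 1 passed 1.5-fold upward and 0 passed it downward on the log2(FPKM + 1) scale. The shares over all genes were 3.6% and 5.33%.

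**Figure D2:**
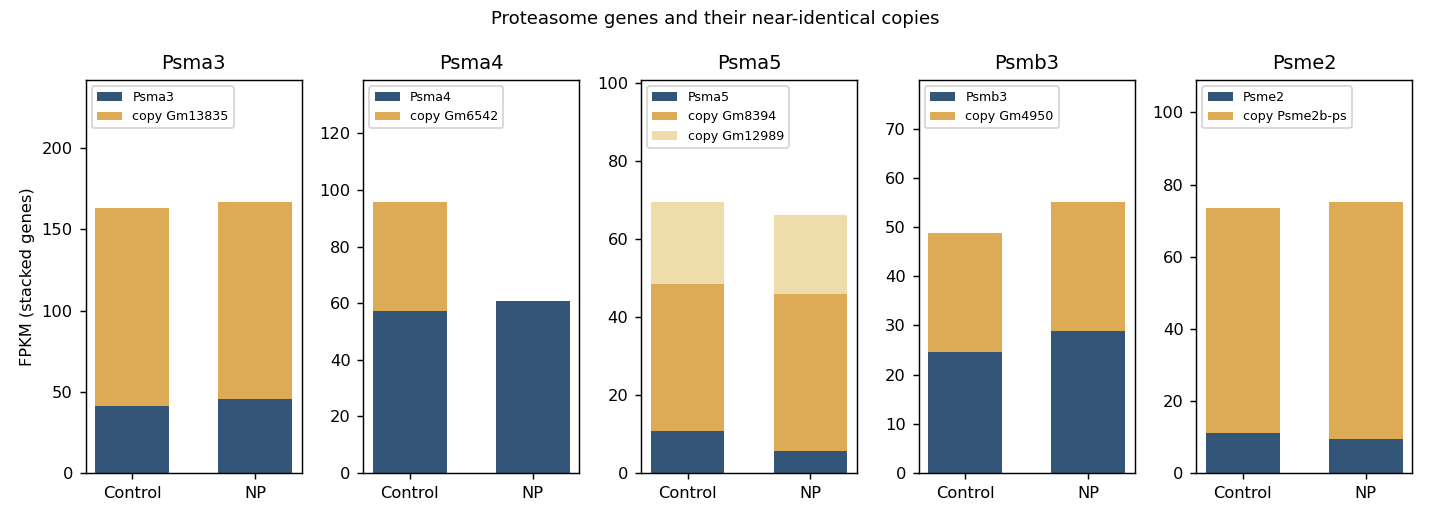
FPKM of 5 proteasome genes (dark blue) stacked with the near-identical copies of each that were expressed in the files (orange and yellow), in the Control and NP libraries. The sum is close between libraries for Psma3, Psma5 and Psme2, while Gm6542, the copy of Psma4, is listed at 0 in NP.

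The constitutive beta subunits of the core had overlapping intervals in 6 of 7 genes. Psmb1 was at 126 FPKM (116–135) in Control and 129 (119–138) in NP, and Psmb4 at 128 (117–138) and 138 (128–149). Psmb2 was at 54.9 and 57.7 FPKM, and Psmb3 at 24.6 and 28.8. Of the subunits that carry the active sites, Psmb6, with caspase-like activity, was at 142 FPKM (130.3–153) in Control and 142 (131–153) in NP. Psmb5, with chymotrypsin-like activity, was at 40.1 FPKM (34.4–45.8) and 32.2 (27.4–37.1), a ratio of 0.804 with overlapping intervals. Psmb7, with trypsin-like activity, was at 102 FPKM (94.2–109.8) in Control and 142 (130.2–153) in NP, 1.39-fold higher. The median log2 ratio of the class was 0.07, and its summed FPKM was 617 (595–638) in Control and 670 (647–693) in NP, with Psmb7 the gene that added most to the difference.

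The higher Psmb7 value came with a short transcript row. The main transcript of 1160 nt was at 102 FPKM (94.2–109.8) in Control and 79.8 (73.0–86.6) in NP, so this row was lower in NP. A transcript of 611 nt had a listed 0 in Control and reached 62.0 FPKM (52.6–71.3) in NP. As with Gm6542, that 0 can be a failed estimate. The higher Psmb7 value in NP rests on this row, so it is uncertain. Summing FPKM over rows counts a short transcript as fully as a long one. With each transcript row weighted by its length, a measure added after the values were seen, Psmb7 had a ratio of 1.102 in place of 1.39. Psmb7 lies on chromosome 2 from 38443556 to 38499607.

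Rows of other members also changed places, and for Psmc5 and Psmd11 the gene values stayed close. Psmc5, a cap ATPase, has transcripts of 1313 and 1316 nt. The first held all 60.5 FPKM in Control and 28.5 in NP, while the second had a listed 0 in Control and 28.4 in NP. The gene as a whole was at 60.5 FPKM (55.2–65.9) in Control and 56.9 (51.6–62.2) in NP. For Psmd11, a scaffold subunit of the cap, the 2848 nt transcript was at 23.7 and 18.4 FPKM and the 1626 nt transcript at 15.0 and 18.3 FPKM, and the gene at 38.7 and 36.7. In all, 5 transcript rows of 4 members were listed at 0 in 1 library and at 1 FPKM or more in the other. Psma3 and Psme2 were among these members. With rows weighted by length, Psma3 had a ratio of 0.944 in place of 1.10, and Psme2 had 0.713 in place of 0.833.

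**Figure D3:**
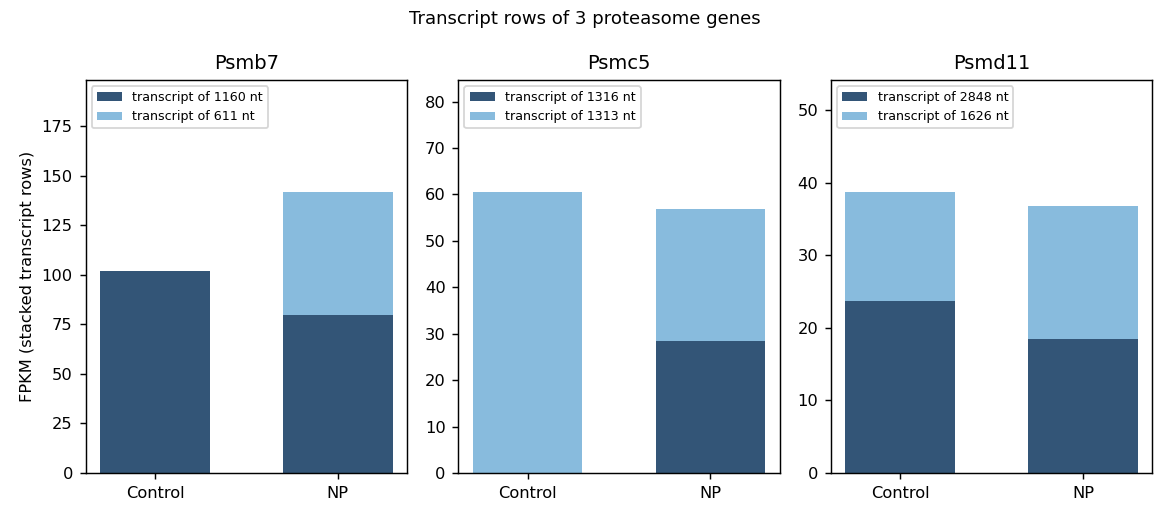
Stacked FPKM of the transcript rows of Psmb7, Psmc5 and Psmd11 in the Control and NP libraries, each row named by its length in nucleotides. The 611 nt row of Psmb7 and the 1316 nt row of Psmc5 are listed at 0 in Control, and the total is higher in NP for Psmb7 alone of these genes.

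The inducible beta subunits had the widest difference of the family in Psmb9. This subunit takes the place of Psmb6 in the immunoproteasome. It was at 1.95 FPKM (1.09–2.82) in Control and 4.28 (3.08–5.48) in NP, with a ratio of 2.19 and separate intervals, and its level in both libraries was the lowest of the 44 genes. All of it lay in 1 transcript of 1340 nt, whose read coverage was 4.38 in Control and 12.1 in NP. Psmb8, which takes the place of Psmb5, was at 12.4 FPKM (9.57–15.2) and 14.02 (11.1–16.9), with overlapping intervals. The inducible genes Psmb8 and Psmb9, with Psmb10 at its listed 0, were set against the inducible and replaced active-site subunits together. They made up 4.82% (3.84–5.79) of that FPKM in Control and 5.47% (4.55–6.39) in NP, and these intervals overlapped. The share takes Psmb10 as 0 and includes the short Psmb7 row of NP, so it is uncertain. By pair, Psmb8 was at 0.309 of Psmb5 in Control and 0.435 in NP. The ratio of Psmb9 to Psmb6 was 0.0138 in Control and 0.0301 in NP, so in both libraries the constitutive subunit was far more abundant.

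Psmb9 and Psmb8 lie next to the peptide transporter genes Tap1 and Tap2, with which they share regulation by interferon. In mm9, Psmb9 spans chromosome 17 from 34318932 to 34324697, Tap1 from 34324498 to 34334170, Psmb8 from 34334666 to 34338399 and Tap2 from 34340472 to 34353266. Psmb9 and Tap1 are transcribed away from each other, and their annotated spans overlap by 200 bases. Tap1 was at 3.53 FPKM (2.71–4.36) in Control and 3.95 (3.14–4.77) in NP, and Tap2 at 7.76 (6.48–9.03) and 8.80 (7.50–10.1). Ratios of Tap1, Psmb8 and Tap2 were 1.12, 1.13 and 1.13, so Psmb9 alone of this cluster had separate intervals. Whether the counting used strand is not given in the sources used here, so reads within the overlap cannot be assigned to Psmb9 or Tap1. The region before Psmb9 is shown as its RefSeq promoter window, from 250 bases before to 50 bases after its start (GRCm38.p6, chr17:34187281-34187580, minus strand), with the reversed CCAAT box in capitals.
Psmb9: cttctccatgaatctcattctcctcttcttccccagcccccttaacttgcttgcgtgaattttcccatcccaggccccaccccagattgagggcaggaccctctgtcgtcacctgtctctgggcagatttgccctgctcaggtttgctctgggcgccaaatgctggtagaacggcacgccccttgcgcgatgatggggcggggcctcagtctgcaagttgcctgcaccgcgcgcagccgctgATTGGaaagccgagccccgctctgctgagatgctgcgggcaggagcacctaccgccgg

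Other genes of interferon-driven class I presentation were for the most part slightly higher in NP. Of 14 genes on this list, 12 passed the filter, of which 1 passed 1.5-fold upward and 0 downward, a count near the 3.6% and 5.33% of all genes. The list median was 0.14 against -0.03 over all genes, and 11 of 12 ratios lay above 0, where 54.4% of all genes lay below. The gene past 1.5-fold was Ube2l6, a conjugating enzyme for the ubiquitin-like protein ISG15, at 12.4 FPKM (10.3–14.6) in Control and 20.7 (18.01–23.3) in NP. H2-K1, a class I heavy chain, was at 205 (193–217) and 251 (237–265) FPKM. Irf1, the interferon response factor that drives Psmb9, was at 11.7 (9.69–13.7) and 13.99 (11.9–16.1) FPKM, with overlapping intervals.

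Leukocytes hold more immunoproteasome than hepatocytes, and most of their markers were lower in NP. Of 22 leukocyte markers, 16 passed the filter, of which 0 passed 1.5-fold upward and 4 downward (Cd74, H2-Aa, H2-Ab1 and Clec4f), against 3.6% and 5.33% of all genes, and the median was -0.38. The summed level of all 22 was 122 FPKM in Control and 87.9 in NP. Log2 ratios lay below 0 for 14 of the 16 and above 0 for 2. Intervals were apart with NP lower for 4 and higher for 0, against 9.58% and 7.73% of all genes. The pan-leukocyte marker Ptprc was at 0.724 FPKM in Control and 0.703 in NP. Lcp1 was at 24.4 and 22.9 FPKM, and Lyz2 at 8.89 and 9.98. Of all 22, 7 markers were under 1 FPKM in Control and 8 in NP. Psmb9 was thus higher in the library whose leukocyte markers were for the most part lower, and their part in the result was not tested. Hepatocyte markers lay on the other side, with 8 of 8 above 0 and a median of 0.21. None passed 1.5-fold, against 3.6% upward and 5.33% downward over all genes. Intervals were apart with NP higher for 4 of the 8, against 7.73% of all genes. Their summed levels were 40010 FPKM in Control and 51779 in NP, of which Alb made up 21660 and 30741. In bulk tissue, fewer cells of a type and less RNA per cell cannot be told apart.

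The ATPases at the base of the cap had a median log2 ratio of -0.05. Of the 6 genes, 0 passed 1.2-fold, against 13.7% upward and 18.1% downward over all genes. Psmc2 was the one with separate intervals, at 58.8 FPKM (54.2–63.4) in Control and 49.9 (45.9–53.8) in NP, with a ratio of 0.848. Psmc3 was the most abundant, at 76.8 FPKM (71.1–82.4) and 78.2 (72.7–83.7). Psmc1 was at 68.6 and 68.2 FPKM, Psmc4 at 56.6 and 57.5, and Psmc6 at 43.0 and 38.4. The ATPase levels in Control spanned 43.0 to 76.8 FPKM.

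Non-ATPase subunits of the cap were close between the libraries. All 11 measured genes lay within 1.2-fold, against 68.2% of all genes, with a median of -0.05 and all intervals overlapping. Copies were not added to these values, and Psmd2 with its copy had separate intervals, as given above. Psmd4, a receptor for ubiquitin chains, was the most abundant at 92.0 FPKM (84.7–99.3) in Control and 91.9 (84.9–98.9) in NP. Psmd14, the subunit that removes ubiquitin from the substrate, was the least abundant at 26.6 (23.6–29.7) and 23.3 (20.6–26.0). Psmd1 and Psmd2, the largest scaffold subunits, were at 45.5 and 41.8 FPKM and at 53.8 and 49.6. Psmd8 was at 72.8 and 74.6 FPKM, Psmd6 at 56.0 and 60.1, Psmd3 at 51.7 and 53.6, Psmd12 at 51.3 and 49.7, Psmd7 at 44.8 and 44.9, and Psmd13 at 37.1 and 34.0. The Psmd13 span overlaps that of Sirt3 by 342 bases and that of Gm15542, listed at 122 and 139 FPKM, by 1194 bases.

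Core and cap medians lay close to 0. Of 14 measured constitutive core genes, 11 lay above 0 (median 0.05), and of 17 cap subunits 11 lay below it (median -0.05). Over all genes 54.4% lay below 0 and the median was -0.03, so the cap count was near the background. With NP scaled to a median ratio of 1, the summed ratio of the non-ATPase cap subunits went from 0.982 to 1.002, and by the single highest row that of the constitutive beta subunits went from 1.09 to 0.991. Summed FPKM was 1043 (1016–1071) in Control and 1107 (1079–1136) in NP for the constitutive core, and 935 (916–954) and 909 (891–927) for the cap. The core sums had separate intervals, and the short Psmb7 row made up 62.0 FPKM of the NP sum. The cap sums overlapped. Transcript length moved with this split. The median length was 1165 nt for alpha and 871 nt for beta subunits, and 1577 nt for ATPases and 1904 nt for non-ATPase subunits. Across the 44 genes, which share their libraries, Spearman's rho of length with the log2 ratio was -0.37, against -0.03 across all 10533 genes. The part of length in the core and cap values was not tested.

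**Figure D4:**
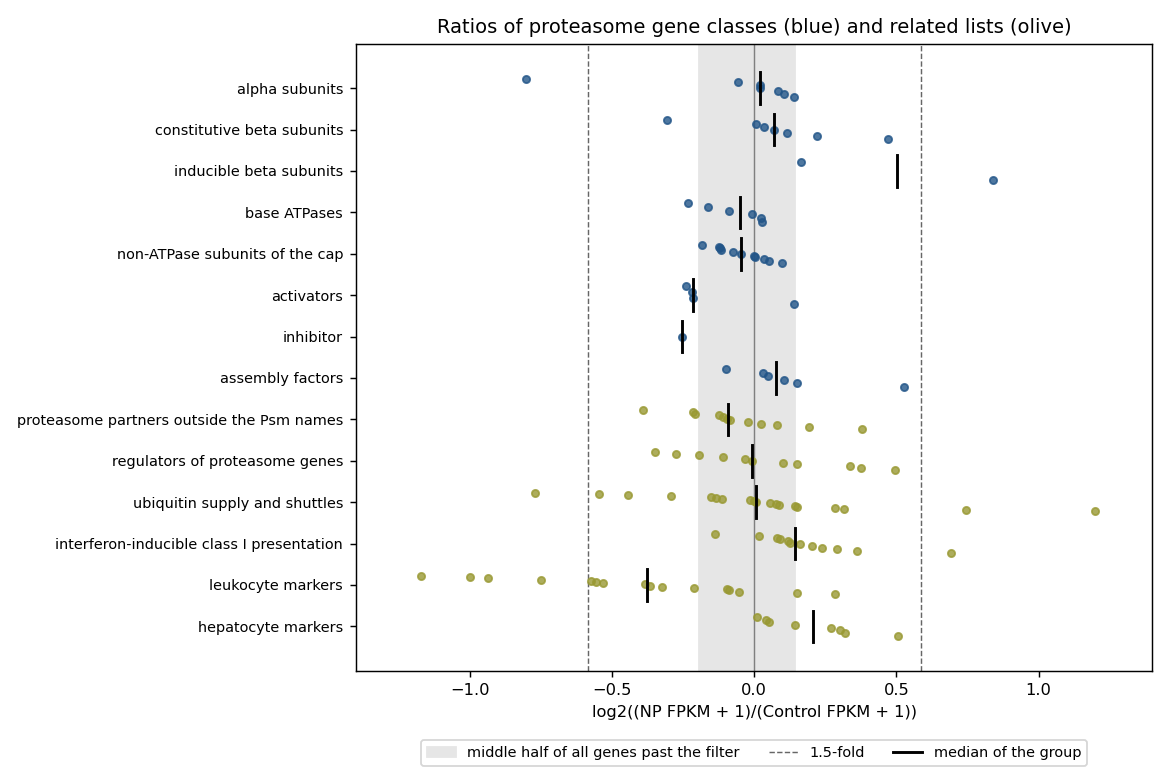
Log2 ratio of NP to Control, as log2((NP FPKM + 1)/(Control FPKM + 1)), for each gene past the filter in 8 classes of proteasome genes (blue) and 6 related gene lists (olive). Black bars are group medians, the grey band is the interquartile range of all genes past the filter (-0.19 to 0.14) and dashed lines mark 1.5-fold; Psma5 and Psmb9 are the only blue points beyond the dashed lines.

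Activators that dock on the core in place of the cap had a ratio under 1 in 3 of 4 genes, where 54.4% of all genes lay below 0. None of the 4 passed 1.2-fold, against 13.7% upward and 18.1% downward over all genes, and Psme4 alone had separate intervals. Psme4, which encodes PA200, was at 22.5 FPKM (20.9–24.0) in Control and 19.2 (17.9–20.6) in NP, with a ratio of 0.856 and separate intervals. Psme3, the nuclear PA28 gamma, was at 21.8 (19.7–24.0) and 18.6 (16.8–20.5). Psmf1, which encodes the inhibitor PI31, was at 11.8 (9.76–13.9) and 9.76 (7.95–11.6). The interferon-inducible PA28 ring is built from Psme1 and Psme2. Psme1 was at 51.0 FPKM (45.8–56.2) in Control and 56.2 (51.0–61.5) in NP. Psme2 was at 11.2 (7.43–15.0) and 9.34 (5.93–12.7), so the listed level of Psme2 was 0.220 of that of Psme1 in Control and 0.166 in NP.

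As with Psma5, most FPKM of the Psme2 sequence was listed under a copy. Psme2b-ps, on chromosome 11, matches Psme2 at 99.4% identity over 794 bases. GENCODE names it Psme2b and lists it as a protein-coding gene, unlike the pseudogene copies of Psma5. The opening 120 coding bases of Psme2 (chromosome 14) are shown because they are the same in both genes, with 0 differences.
Psme2: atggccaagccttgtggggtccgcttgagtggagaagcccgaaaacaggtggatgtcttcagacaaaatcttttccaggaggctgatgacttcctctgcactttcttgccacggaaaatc
The copy was at 62.4 FPKM in Control and 65.9 in NP. Psme2 and the copy together were at 73.6 FPKM (65.9–81.3) in Control and 75.2 (67.7–82.8) in NP, with a ratio of 1.02, where Psme2 alone had 0.833. Its highest transcript row was at 4.63 FPKM in Control and 6.70 in NP. Psme2 held 15.2% of the sum with its copy in Control and 12.4% in NP.

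Assembly factors had a lower median level than the constitutive core and the cap. It was 11.6 FPKM in Control and 14.4 in NP, and the class median log2 ratio was 0.08 over 6 measured genes. Psmg3, which pairs with Psmg4 in building the alpha ring, was at 12.1 FPKM (9.26–14.8) in Control and 17.8 (14.5–21.1) in NP, with a ratio of 1.48 and intervals that just overlapped. Its partner Psmg4 was at 9.69 (6.39–13.0) and 8.98 (5.90–12.1). The partners Psmg1 and Psmg2 were at 18.8 and 20.3 FPKM and at 11.2 and 11.4. Psmd5 and Psmd10, chaperones of the base of the cap, were at 15.6 and 17.4 FPKM and at 7.81 and 8.11, with overlapping intervals. Pomp, which guides the maturation of the beta rings and does not carry a Psm name, was at 128 (117–139) and 126 (115–136) FPKM, well above the other assembly factors in both libraries.

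Partners of the proteasome outside the Psm names were also close between libraries. Of 13 such genes, 12 were found and all passed the filter, with a median of -0.09. None passed 1.5-fold upward or downward, against 3.6% and 5.33% of all genes, so a count of 0 among 12 lay near the background. Zfand2a, a stress-induced binding protein of the cap, had the highest ratio at 4.09 and 5.61 FPKM. Adrm1, a ubiquitin receptor of the cap, had the lowest at 24.8 (19.3–30.2) and 18.6 (14.2–23.1), and Usp14, a deubiquitinase on the cap, was at 20.9 and 17.9. All 12 had overlapping intervals.

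Some regulators of proteasome genes had separate intervals, with the level higher in NP for most of them. Nfe2l1, the transcription factor (NRF1) that raises proteasome genes when proteasome activity is short, was at 32.5 FPKM (30.1–34.8) in Control and 42.4 (39.8–45.0) in NP, with a ratio of 1.305 and separate intervals. Nfe2l2 (NRF2), its relative in the antioxidant response, was at 18.9 (16.9–20.9) and 24.2 (21.95–26.3). Stat3, the transducer of IL-6 signals, was at 19.2 (17.6–20.7) and 27.4 (25.5–29.3). Ddi2, the protease that activates NRF1, was at 34.3 (32.5–36.2) and 38.3 (36.3–40.2), and Ngly1, which removes its glycans, at 17.6 and 17.2. Bach1, a repressor at the same DNA elements, was at 11.01 (10.01–12.0) and 8.92 (8.08–9.76). Of 11 regulators, 0 passed 1.5-fold in either direction, against 3.6% upward and 5.33% downward over all genes, and the median was -0.01. Log2 ratios lay above 0 for 5 of the 11 and below 0 for 6. Intervals were apart with NP higher in 4 and lower in 1, where the shares over all genes were 7.73% and 9.58%. These are transcript levels, and NRF1 is controlled largely after translation.

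Ubiquitin supply and delivery to the proteasome was followed in a further list, of which 19 genes passed the filter, with a median of 0.01. Of these, 2 passed 1.5-fold upward and 1 downward, against 3.6% and 5.33% of all genes. Ubb, which encodes ubiquitin as a chain of repeats, was at 248 FPKM (234–261) in Control and 415 (396–434) in NP, with a ratio of 1.68 and separate intervals. Ube2r2, a conjugating enzyme, was the 1 gene of the list past 1.5-fold downward, at 49.4 (44.1–54.7) and 28.6 (26.5–30.7) FPKM. Rps27a, which encodes ubiquitin fused to a ribosomal protein, was at 29.5 (23.8–35.3) and 19.9 (15.7–24.2), with intervals that overlapped. The shuttle factors Rad23b (77.8 and 71.9 FPKM) and Ubqln1 (44.1 and 44.1 FPKM) had overlapping intervals.

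Promoter windows of 40 of the 48 symbols, 43 windows in all, were in the RefSeq table of build GRCm38.p6. Both strands were searched for the core of the antioxidant response element bound by NRF1 and NRF2, TGACNNNGC, for the core of the interferon-stimulated response element, and for the CCAAT box, CCAAT. The first was in 6 of 43 windows, 13.95%, against 12.4% of all 32851 windows. The second was in 5 windows, 11.6%, against 3.44%. The third was in 14 windows, 32.6%, against 37.4%. These are matches of letters and not sites of binding. Of the active-site subunits, Psmb5 and Psmb6 held an antioxidant response element core and neither had separate intervals. The Psmb6 window (GRCm38.p6, chr11:70525107-70525406, plus strand) is printed as the constitutive partner of Psmb9, with that core in capitals.
Psmb6: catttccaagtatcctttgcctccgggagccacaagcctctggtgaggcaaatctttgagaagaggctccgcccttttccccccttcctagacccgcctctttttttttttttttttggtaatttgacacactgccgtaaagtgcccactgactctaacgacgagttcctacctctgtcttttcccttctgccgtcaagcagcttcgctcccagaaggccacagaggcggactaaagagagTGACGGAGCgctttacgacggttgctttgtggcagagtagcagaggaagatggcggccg
The interferon-stimulated core was matched in the windows of Psmb3, Psmd4, Psmd9, Psme1 and Psmg4. Psme1 is the one of these known to be induced by interferon, and its window (GRCm38.p6, chr14:55578244-55578543, plus strand) is printed with the match in capitals.
Psme1: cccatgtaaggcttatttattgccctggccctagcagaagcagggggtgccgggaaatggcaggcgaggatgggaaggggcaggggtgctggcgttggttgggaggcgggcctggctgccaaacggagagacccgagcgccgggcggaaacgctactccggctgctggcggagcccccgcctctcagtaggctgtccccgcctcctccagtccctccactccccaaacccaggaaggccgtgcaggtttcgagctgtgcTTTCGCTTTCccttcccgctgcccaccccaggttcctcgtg
The match lies 10 bases into the Psme1 transcript on the reverse strand. The windows of Psmb8 and Psmb9 did not hold these letters, which says nothing on whether a factor binds there.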

How the data were processed

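RNA was extracted from frozen liver with Trizol and libraries were made with an Illumina TruSeq RNA kit, per the labels' protocols. Per the submitters' processing notes the tools were TopHat2 2.1.0 and Cufflinks 2.2.1.0 and the build was mm9, with no settings stated there. The authors deposited FPKM with 95% bounds, and read coverage as a signal not scaled to depth, per the file headers. The row length (another column, in bases) was used as deposited. Each table held 119289 rows, of which 31633 were spans of whole genes, which may include reads from introns.

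The FPKM rows sharing an identifier were added up, and interval half-widths were combined in quadrature, which leaves out covariance between rows. Genes were kept at a mean of at least 1 FPKM, with OK status throughout, transcripts no shorter than 300 nt and no small RNA name. The pseudocount was 1 and the size rule 1.5-fold on the log2(FPKM + 1) scale. Copies were found with blastn 2.17.0 in GENCODE transcripts. Python 3.11.15 and pandas 2.3.3 were used, and the size rule was tested on simulated data. The members, classes and lists were chosen with earlier results of these data known. Every member is accounted for, with intervals for catalytic pairs, activators, assembly factors and any member at least 1.25-fold apart or with separate intervals. From other lists, named genes and some extremes were given, and further genes were named after their values were seen. Some genes of these lists are not reported here.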

Additional observations from a re-analysis of the deposited data

How the results depend on the processing

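No paired analysis was possible because each group had 1 library. Of 318 recomputed values over 16 settings, 131 equalled the reported value, among them values the setting could not change (summed ratios and shares under another pseudocount, any member value under the status filter, since 0 member rows failed it). Of the other 187, 29 moved past tolerance (0.1 in log2 for medians, 1.5 times for counts, the combined interval for sums and shares), and the cause was not tested. The count of members 1.5-fold higher, 1 in the report, was 0 with a pseudocount of 5, with the filter raised to 5 FPKM and at 2-fold, and 3 at 1.2-fold. The count lower, 1 in the report, was 0 with a pseudocount of 5, at 2-fold and without members that have an expressed copy, and 2 at 1.2-fold (Psma5 and Psmb5) and by the single highest row (Psma5 and Psmc5). Over all genes, 940 were 1.5-fold apart, against 381 with a pseudocount of 5, 464 at a mean of 5 FPKM, 3345 at 1.2-fold and 318 at 2-fold. The inducible beta median of 0.50, from Psmb8 (0.16) and Psmb9 (0.84) alone, was 0.63 and 0.27 with pseudocounts of 0.1 and 5. It was 0.082 without a filter, which adds identifiers listed at 0. At a mean of 5 FPKM it was 0.16, with Psmb8 alone left. By the single highest row, summed ratios were 0.991 for constitutive beta subunits (1.09 in the report) and 0.880 for ATPases (0.958), medians were -0.037 for activators (-0.22), 0.27 for the interferon list (0.14) and -0.53 for leukocyte markers (-0.38), and the inducible share in Control was 3.46% (4.82%). Copies gave a summed alpha ratio of 0.959 (1.03) and an activator median of -0.091. The regulator median was 0.10 at a mean of 5 FPKM. The leukocyte median was -0.50 and -0.24 with pseudocounts of 0.1 and 5, and -0.20 without a filter. The copy and length-weighted settings were chosen after seeing the data. The upper limit lay farthest above the value for Psmb9 in Control (44.2%) and for Psme2 in NP (36.5%).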
